A study of Mus musculus with 8 samples.

Results

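The 10 genes described here mark resident Kupffer cells, the macrophages that live in the sinusoids of the liver: Clec4f, Vsig4, Cd5l, Timd4, Marco, Fcna, Siglec1, C1qa, C1qb and Csf1r. They were chosen by name as a set, with earlier results of these data known, and are 10 of the 55487 genes counted. The aim was to see whether genes of the resident macrophage are lower together or singly when hepatocytes lack melanocortin 1 receptor (Mc1r). The livers of 8 mice were sequenced, 4 of them controls (154, 159, 181 and 193) and 4 Mc1r LKO (141, 156, 157 and 182). All were males homozygous for a floxed Mc1r allele that were 8 weeks old when a cholesterol-rich Western diet began, and all were fed it for 12 weeks. Mc1r LKO mice also carried a Cre transgene driven by the albumin promoter (Alb Cre), which is active in hepatocytes, whereas control mice did not carry it, so the Kupffer cells of both groups kept Mc1r by design. RNA was taken from whole liver, in which most transcripts come from hepatocytes, and in such bulk RNA fewer cells of a type and less RNA per cell cannot be told apart.

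Kupffer cells take up bacteria, dying cells and modified lipoproteins from portal blood. They do this with a set of lectins, scavenger receptors and complement receptors on their surface, and they secrete complement components and other proteins that bind what they clear. Most settle in the liver before birth and renew themselves there, dependent on signalling through the receptor Csf1r. Clec4f, Vsig4 and Timd4 are widely used to tell resident Kupffer cells from monocyte-derived macrophages, which gain Clec4f and Vsig4 as they adapt to the liver and Timd4 late or not at all. Fatty liver is known to be a setting in which resident cells can be lost and replaced.

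Between 10773151 (control mouse 159) and 24763375 (Mc1r LKO mouse 157) read pairs were counted on genes per mouse. Mc1r itself had a count of 0 in all 8 livers, which allows up to 3 counts, or 0.121 to 0.278 CPM (counts put on one library size) by mouse, for counting error only, so the genotype could not be checked at this depth. Pairs of mice of one genotype differed by more than sampling noise, with a chi-square per degree of freedom of 11.9 or more. In a principal component analysis of all tested genes, Mc1r LKO mouse 182 lay farthest out on the first component (59.3, against -28.2 to 27.8 in the others) and control mouse 159 on the second (-40.5, against -8.40 to 22.0). These 2 mice were also at the ends of the range for most of the Kupffer cell genes, and results are therefore given with and without them, a choice made after seeing the data.

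All 10 Kupffer cell genes had a mean above the limit of detection in both groups and passed the filter on low counts, among the 13400 genes kept. Levels of different genes were compared as TMM-normalised CPM divided by the length of the gene's exons in kilobases. On that scale, over the 8 livers, Cd5l (59.4 CPM per kb), C1qb (58.5) and C1qa (57.4) were highest, followed by Clec4f (41.2), Vsig4 (20.9), Fcna (17.9), Csf1r (9.72), Marco (3.71), Timd4 (2.33) and Siglec1 (1.03). Adgre1, which encodes the macrophage marker F4/80, was at 4.65 CPM per kb and Alb, which encodes albumin, at 25632. The order of Cd5l and C1qb held in 3 of 8 mice, that of C1qb and C1qa in 5 of 8, and that of Vsig4 and Fcna in 5 of 8, so these neighbours did not differ beyond the spread between mice. Marco was above Timd4 in 7 of 8 mice, and the other 5 neighbouring pairs kept their order in all 8.

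Each of the 10 genes had a lower mean in Mc1r LKO livers, and none of the 10 differences passed an adjusted p of 0.05. The share of all 13400 tested genes with a negative log2 fold change was 52.1%. As the set was chosen with earlier results of these data known, its contrast with all genes is a description and not a test. The median log2 fold change of the 10 genes was -0.44, against -0.011 over all tested genes. With Benjamini-Hochberg adjustment over all tested genes, edgeR's quasi-likelihood test called 0 genes of the whole table at an adjusted p under 0.05 (0%), and the smallest adjusted p of a Kupffer cell gene was 0.734. At an unadjusted p under 0.05, 3 of the 10 were lower (Fcna, Siglec1 and Csf1r) and 0 higher, against 2.87% of all genes called lower, 3.86% called higher and 6.72% called in either direction. All 3 were lower by 0.25 or more on the log2 scale, as were 2.66% of all genes at that p. Levels in the 2 genotypes did not overlap for 1 of the 10, Fcna, against 1.54% of all genes with every Mc1r LKO mouse below every control mouse. DESeq2 gave an adjusted p under 0.05 for 17 genes, Fcna among them (adjusted p = 0.0303), the likelihood ratio test of edgeR for 8 genes and none of the 10, limma-voom for 0, and the quasi-likelihood test with no filter for 1 gene, which was none of the 10.

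**Figure D1:**
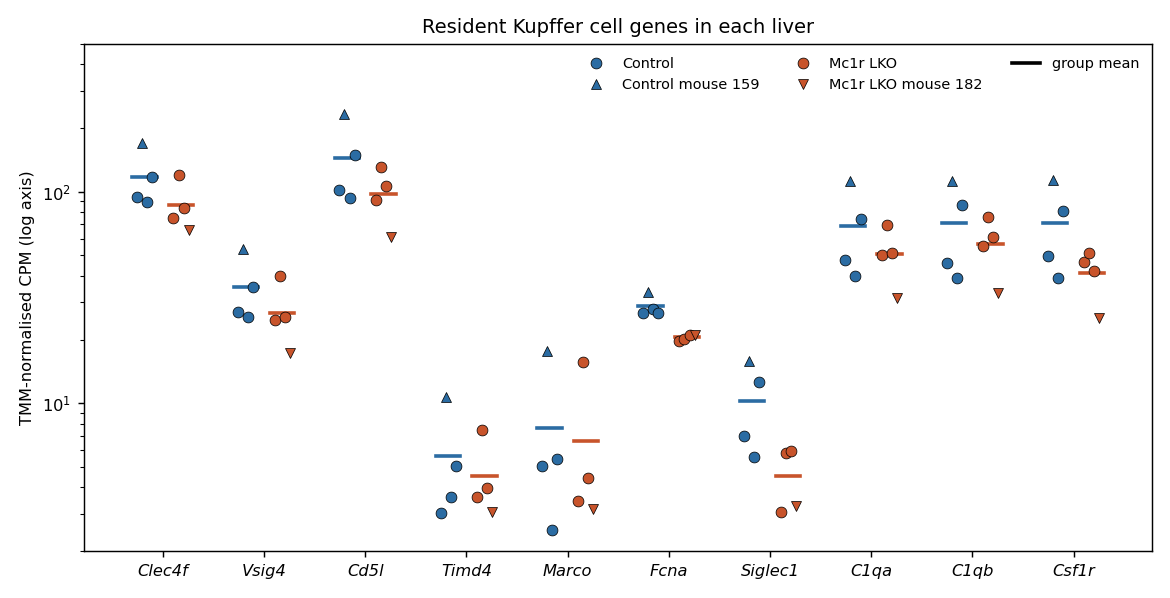
TMM-normalised CPM (log axis) of the 10 Kupffer cell genes in each of the 4 control livers (blue) and 4 Mc1r LKO livers (orange), with the group mean as a bar and mice 159 and 182 as triangles. Control mouse 159 is the highest point for every gene, and the genotypes are apart for Fcna only, where the controls lie between 26.6 and 33.6 CPM and the Mc1r LKO mice between 19.8 and 21.0 CPM.

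Surface receptors that bind particles make up 5 of the set. Clec4f (ENSMUSG00000014542, chromosome 6 of GRCm38 from 83644542 to 83656187) encodes a lectin that binds galactose and N-acetylgalactosamine and is found in mouse liver on Kupffer cells alone. It was at 94.2, 170.2, 89.3 and 117 CPM in control mice 154, 159, 181 and 193, and at 74.7, 119, 84.2 and 66.0 CPM in Mc1r LKO mice 141, 156, 157 and 182. Mice 141, 157 and 182 were below every control, and mouse 156 was above 3 of the controls. The means were 118 ± 37.1 and 86.1 ± 23.4 CPM (SD, n = 4 each), and the log2 fold change of -0.45 (SE 0.23) did not pass edgeR's quasi-likelihood test (p = 0.0794, adjusted p = 0.774; exact permutation test, two-sided, p = 0.171). Vsig4 (ENSMUSG00000044206, chromosome X from 96247203 to 96293438) encodes a receptor for fragments of complement C3 that captures opsonised bacteria from the blood. Its levels were 26.8, 53.5, 25.4 and 35.6 CPM in controls and 24.6, 39.8, 25.4 and 17.3 CPM in Mc1r LKO mice, in the same order of mice. The lowest control, mouse 181, and Mc1r LKO mouse 157 had the same level to 3 digits, and the groups overlapped. The log2 fold change was -0.40 (SE 0.28, adjusted p = 0.854 by edgeR's quasi-likelihood test).

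Timd4 (ENSMUSG00000055546, chromosome 11 from 46810800 to 46844332) encodes a receptor for phosphatidylserine on dying cells. It was at 3.03, 10.7, 3.60 and 5.06 CPM in controls and 3.60, 7.47, 3.96 and 3.07 CPM in Mc1r LKO mice, from counts of 52 to 124 read pairs. No Mc1r LKO mouse was below the lowest control, mouse 154, and the log2 fold change of -0.28 (SE 0.42) was smaller than its error. Marco (ENSMUSG00000026390, chromosome 1 from 120474538 to 120505024) encodes a class A scavenger receptor for bacteria and modified lipoproteins. Its levels were 5.05, 17.6, 2.50 and 5.42 CPM in controls and 3.46, 15.6, 4.40 and 3.17 CPM in Mc1r LKO mice. One mouse of each genotype, control 159 and Mc1r LKO 156, stood far above the other 3 of its group. With a log2 SD within genotypes of 1.10, larger than that of 98.4% of all tested genes, Marco gave a log2 fold change of -0.17 (SE 0.65, adjusted p = 0.978 by edgeR's quasi-likelihood test).

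Siglec1 (ENSMUSG00000027322, chromosome 2 from 131069220 to 131086765) encodes sialoadhesin, a receptor for sialic acids that is also known to be induced by interferon. It was at 6.96, 15.8, 5.58 and 12.6 CPM in controls and at 3.04, 5.78, 5.94 and 3.27 CPM in Mc1r LKO mice, from counts of 44 to 308 read pairs. Mc1r LKO mice 141 and 182 were below every control, while mice 156 and 157 were just above the lowest control, mouse 181. The means were 10.2 ± 4.79 and 4.51 ± 1.57 CPM (SD, n = 4 each), a log2 fold change of -1.16 (SE 0.36), the lowest of the 10 genes. Its unadjusted p in edgeR's quasi-likelihood test was 0.00838 and its adjusted p 0.734, and the exact permutation test gave p = 0.0857, where 4 mice against 4 allow no p below 0.0286.

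Proteins that Kupffer cells secrete make up 4 of the set. Cd5l (ENSMUSG00000015854, chromosome 3 from 87357881 to 87371073) encodes a secreted scavenger protein also called AIM, for apoptosis inhibitor of macrophages. Its levels were 102, 233, 93.4 and 149 CPM in controls and 91.5, 131, 106 and 61.4 CPM in Mc1r LKO mice. Mice 141 and 182 lay below every control, and the log2 fold change was -0.57 (SE 0.30, adjusted p = 0.779 by edgeR's quasi-likelihood test). C1qa (ENSMUSG00000036887, chromosome 4 from 136895917 to 136898803) and C1qb (ENSMUSG00000036905, chromosome 4 from 136880129 to 136886187) encode chains of C1q, which starts the classical complement pathway. C1qa was at 47.3, 113, 40.1 and 74.4 CPM in controls and 50.2, 69.9, 51.4 and 31.3 CPM in Mc1r LKO mice. C1qb was at 45.9, 112, 38.9 and 86.2 CPM in controls and 55.7, 76.1, 61.1 and 33.1 CPM in Mc1r LKO mice. For both chains only mouse 182 was below the lowest control, and 3 Mc1r LKO mice were above 2 of the controls. The log2 fold changes were -0.43 (SE 0.32) for C1qa and -0.32 (SE 0.34) for C1qb, with adjusted p of 0.859 and 0.907 by edgeR's quasi-likelihood test. C1qc, the third chain, which lies between them on the same strand, had a log2 fold change of -0.51 (SE 0.34, adjusted p = 0.843). Per kilobase, the ratio of C1qa to C1qb stayed between 0.880 and 1.08 in the 8 livers and that of C1qc to C1qb between 0.524 and 0.703.

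Fcna (ENSMUSG00000026938, chromosome 2 from 25624666 to 25628030) encodes ficolin A, a secreted lectin that recognises sugars on microbes and starts the lectin pathway of complement. It was at 26.6, 33.6, 27.9 and 26.6 CPM in controls and at 19.8, 20.1, 21.0 and 21.0 CPM in Mc1r LKO mice. The 4 Mc1r LKO livers were all below the lowest control and lay within a narrow band. The means were 28.7 ± 3.32 and 20.5 ± 0.646 CPM (SD, n = 4 each), or 0.716 times the control level, and the log2 fold change was -0.48 (95% interval -0.70 to -0.26, SE 0.098). The unadjusted p in edgeR's quasi-likelihood test was 5.72e-04, the lowest of the 10, but the adjusted p was 0.734, and the exact permutation test gave p = 0.0286, the smallest it can give. Fcna varied least of the 10 between mice: its log2 SD within genotypes was 0.12, against 0.40 to 1.10 for the other 9 genes, and 13.3% of all tested genes had a smaller one. Among Mc1r LKO mice its SD was 0.045, below the 0.076 that counting error alone gives on average for 286 to 521 read pairs.

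Because Fcna differed from the other 9 in how it varied, its promoter is set beside that of Clec4f, which also served as the reference for the ratios, and of Cd5l and Marco, the other members with a match to the motif of PU.1, the transcription factor that macrophages depend on. RefSeq (GRCm38.p6) promoters of 300 bases, from 250 before to 50 after the start, matched 7 of the 10 genes, not Siglec1, C1qa and Csf1r. The sequences shown end before the first annotated base of the gene, read 5′ to 3′ in the direction of transcription, and carry motif matches in capitals.
Clec4f (chr6:83656188-83656366, minus strand): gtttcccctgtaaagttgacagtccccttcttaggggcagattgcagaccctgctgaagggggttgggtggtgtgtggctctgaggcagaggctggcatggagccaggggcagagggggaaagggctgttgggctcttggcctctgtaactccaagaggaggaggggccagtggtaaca
Cd5l (chr3:87357631-87357880, plus strand): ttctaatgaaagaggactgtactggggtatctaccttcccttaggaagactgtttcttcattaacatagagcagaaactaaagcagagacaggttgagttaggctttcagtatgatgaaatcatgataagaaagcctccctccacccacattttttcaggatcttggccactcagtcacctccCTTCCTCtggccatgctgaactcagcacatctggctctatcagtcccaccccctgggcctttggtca
Marco (chr1:120505025-120505274, minus strand): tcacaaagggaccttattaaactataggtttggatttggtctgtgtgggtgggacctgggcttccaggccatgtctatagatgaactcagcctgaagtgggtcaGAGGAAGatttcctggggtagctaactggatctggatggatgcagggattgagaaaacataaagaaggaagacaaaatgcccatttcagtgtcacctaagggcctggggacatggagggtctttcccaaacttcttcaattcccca
Fcna (chr2:25628031-25628224, minus strand): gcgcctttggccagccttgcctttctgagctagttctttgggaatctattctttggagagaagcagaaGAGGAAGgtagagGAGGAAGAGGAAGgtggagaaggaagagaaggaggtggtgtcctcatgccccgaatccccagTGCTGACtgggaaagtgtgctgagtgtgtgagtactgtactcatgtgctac
On either strand, the letters GAGGAAG of the PU.1 motif were found in 3 of the 7 promoters (Cd5l, Marco and Fcna) and in 13.6% of the 32851 RefSeq promoters of the same length. Fcna held 3 such matches, 2 of which share 1 base, whereas Cd5l and Marco held 1 each, on the reverse strand in Cd5l. The core of the recognition element of the MAF factors, TGCTGAC, was found in 2 of the 7 (Fcna, as the last run of capitals, and Timd4) and in 4.67% of all promoters. Neither the interferon-stimulated response element (in 3.44% of all promoters) nor the sites of AP-1 (TGANTCA, 7.81%), of the MiT/TFE factors (CACGTG, 7.15%) and of C/EBP (TTGCNNAA, 10.8%) had a match in the 7. These are matches of letters in short windows and do not show binding.

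Csf1r (ENSMUSG00000024621, chromosome 18) encodes the receptor for the growth factors CSF-1 and IL-34 on which macrophages depend for survival. It was at 49.6, 114, 38.9 and 80.9 CPM in controls and at 46.6, 51.5, 42.1 and 25.3 CPM in Mc1r LKO mice. Mouse 182 was the only Mc1r LKO mouse below the lowest control, while control mice 159 and 193 were above every Mc1r LKO mouse. The log2 fold change was -0.77 (SE 0.32, p = 0.0375, adjusted p = 0.734 by edgeR's quasi-likelihood test; exact permutation test, p = 0.229). The unadjusted p exceeded 0.05 in 5 of the 8 fits that left out 1 mouse, with the exceptions being those without control 154, control 181 or Mc1r LKO 156.

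Compared liver by liver, the highest and the lowest levels came from the same mice for most of the genes. Control mouse 159 was highest of the 8 for all 10 genes, at a mean of 1.04 log2 units above the mean of the 8 livers. Mc1r LKO mouse 182 was lowest for 6 of the 10, Clec4f, Vsig4, Cd5l, C1qa, C1qb and Csf1r, at a mean of 0.74 log2 units below it (-0.74). Controls 193 (0.38), 154 (-0.14) and 181 (-0.35) lay between them, as did Mc1r LKO mice 156 (0.34), 157 (-0.17) and 141 (-0.36), so that apart from these 2 livers the genotypes alternated. Control mouse 159 also had the fewest counted read pairs, while the summed level of 25 pan-macrophage and myeloid genes in it was 1627 CPM, against 553 to 1032 CPM in the other controls and 471 to 788 CPM in Mc1r LKO mice. Its 22 interferon-induced genes summed to 1230 CPM, against 412 to 558 CPM in the other controls. In mouse 182 the 9 hepatocyte genes summed to 116635 CPM, the highest of the 8 livers (80073 to 99966 CPM in the rest), and its 17 sinusoidal endothelial genes to 372 CPM, the lowest (468 to 556 CPM in the rest). The part that depth or the makeup of these livers had in the levels of the 10 genes was not tested.

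**Figure D2:**
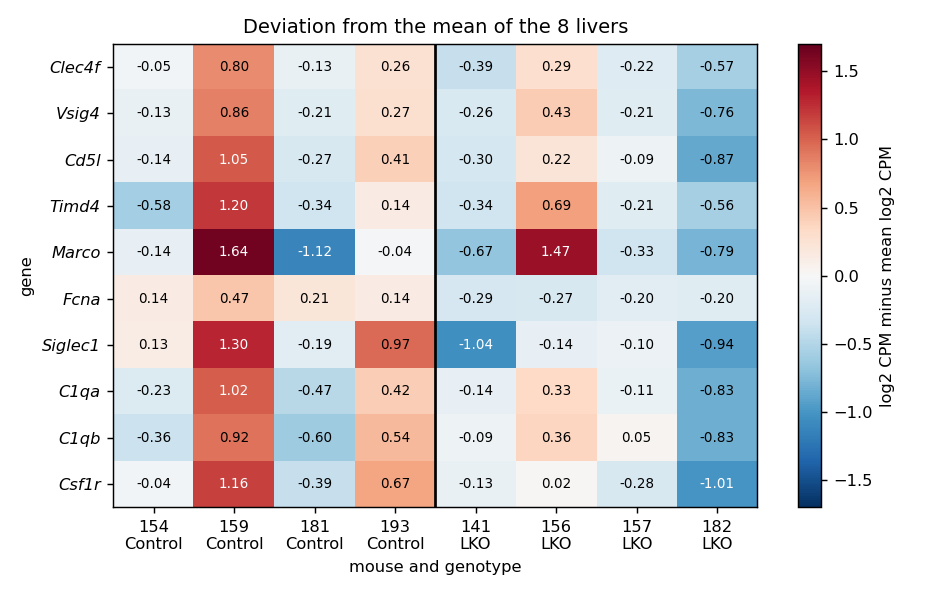
Log2 CPM of each of the 10 genes (rows) in each liver (columns, controls left of the line) minus that gene's mean over the 8 livers, in red above it and in blue below it. The column of control mouse 159 is red throughout (0.47 for Fcna to 1.64 for Marco), that of Mc1r LKO mouse 182 is blue throughout (-0.20 for Fcna to -1.01 for Csf1r), and Fcna is the row with positive values in all 4 controls and negative values in all 4 Mc1r LKO mice.

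Leaving these livers out changed the answer for most of the set, but the direction of the change followed from the choice of mice. Control mouse 159 was highest for all 10 genes and Mc1r LKO mouse 182 lowest for 6, so leaving them out shifts those log2 fold changes upward. Without Mc1r LKO mouse 156 or control 181 the median log2 fold change moved the other way, to -0.65 and -0.54. Without control mouse 159, 8 of the 10 genes were lower and the median log2 fold change was -0.17, with Timd4 (0.21) and Marco (0.61) turning to higher. Without Mc1r LKO mouse 182, 9 were lower and the median was -0.30. Without both, 5 of the 10 were lower, against 51.3% of all genes tested in those 6 mice, and the median was -0.017, against -0.007 over all genes tested. In that comparison Clec4f was at -0.11 (95% interval -0.50 to 0.29), Vsig4 at 0.032 (-0.42 to 0.48) and C1qa at 0.086 (-0.41 to 0.58), with 0 inside each interval. Fcna stayed at -0.41 (-0.61 to -0.20, adjusted p = 0.265 by edgeR's quasi-likelihood test) and was the only one of the 10 with an unadjusted p under 0.05. That fit called 4.25% of all genes lower at that p, and 7.17% had every Mc1r LKO mouse below every control. In the 8 fits that left out 1 mouse, the log2 fold change of Fcna was between -0.51 and -0.39, each with an unadjusted p under 0.05. Siglec1 kept an unadjusted p under 0.05 in each of those 8 fits (-1.37 to -0.88) and lost it, at -0.75 (-1.53 to 0.020), when both livers were left out.

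**Figure D3:**
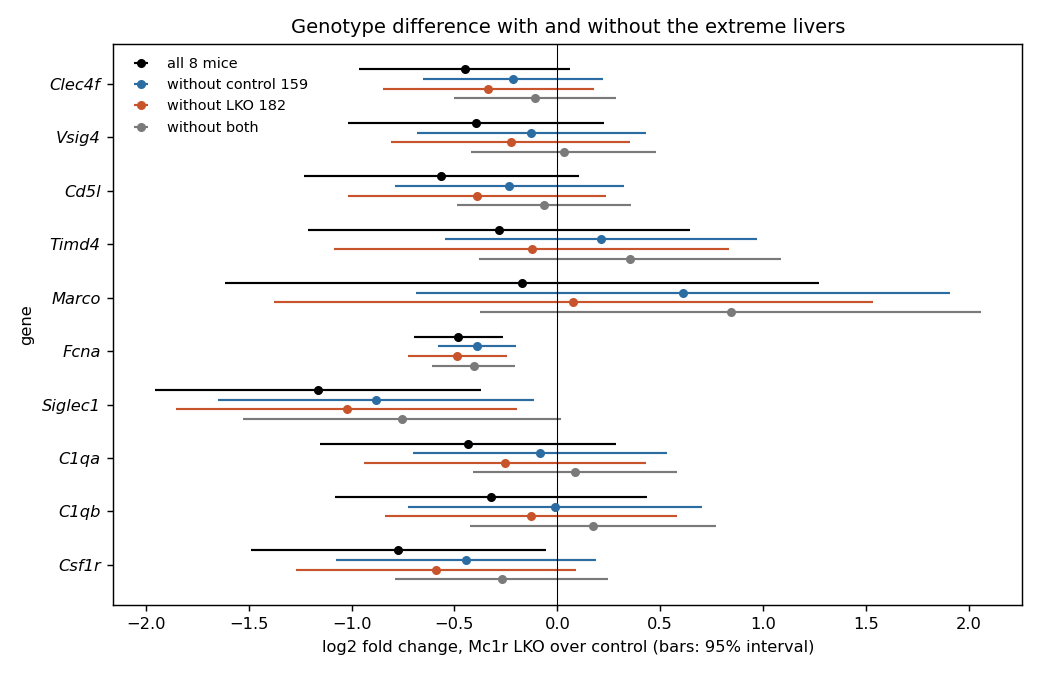
Log2 fold change of Mc1r LKO over control for the 10 genes from edgeR's quasi-likelihood fit, with 95% intervals, for all 8 mice (black), without control mouse 159 (blue), without Mc1r LKO mouse 182 (orange) and without both (grey). Points move toward or past 0 as the 2 livers are left out, whereas Fcna stays between -0.49 and -0.39 and its intervals stay below 0.

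Whether the genes vary together apart from the genotype was asked with log2 CPM centred on the genotype means, over 8 mice, with exact permutation of mice within genotypes and adjustment over the 45 pairs of genes. Among the 36 pairs without Fcna, Pearson's r was 0.79 to 0.99 (median 0.92) and Spearman's rho 0.71 to 1.00, and 35 pairs by r and 27 by rho had an adjusted p under 0.05 in the exact permutation test. The relation did not rest on the most extreme livers: without the 2 mice farthest from the median of the first gene, r was 0.38 to 0.99 (median 0.87), and without mice 159 and 182 it was 0.54 to 0.99 (median 0.84). Clec4f and Vsig4, for example, had r = 0.98 and rho = 0.98, and r = 0.94 without the 2 farthest mice.

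The 9 pairs with Fcna differed. Their r was 0.42 to 0.64 (median 0.50), rho was 0.17 to 0.67, and none had an adjusted p under 0.05 (lowest 0.230 for r in the exact permutation test). Without the 2 mice farthest from the median of the first gene, r was negative in all 9 pairs (-0.78 to -0.13). Without mice 159 and 182 it was negative in 8 of 9 (-0.60 to 0.035), so the positive values with all mice rested on the livers left out. All 9 pairs share the same Fcna values, whose log2 SD among Mc1r LKO mice (0.045) was below the 0.076 from counting error. Controls other than 159 lay 0.14 to 0.21 log2 units above the mean of the 8 livers, where counting error in controls has an SD of 0.065. Low or negative r can therefore reflect counting error, and does not show that Fcna ran apart from or against the other genes. The mice share their sequencing depth and cell makeup across all genes, and no comparison with pairs of other genes was made.

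**Figure D4:**
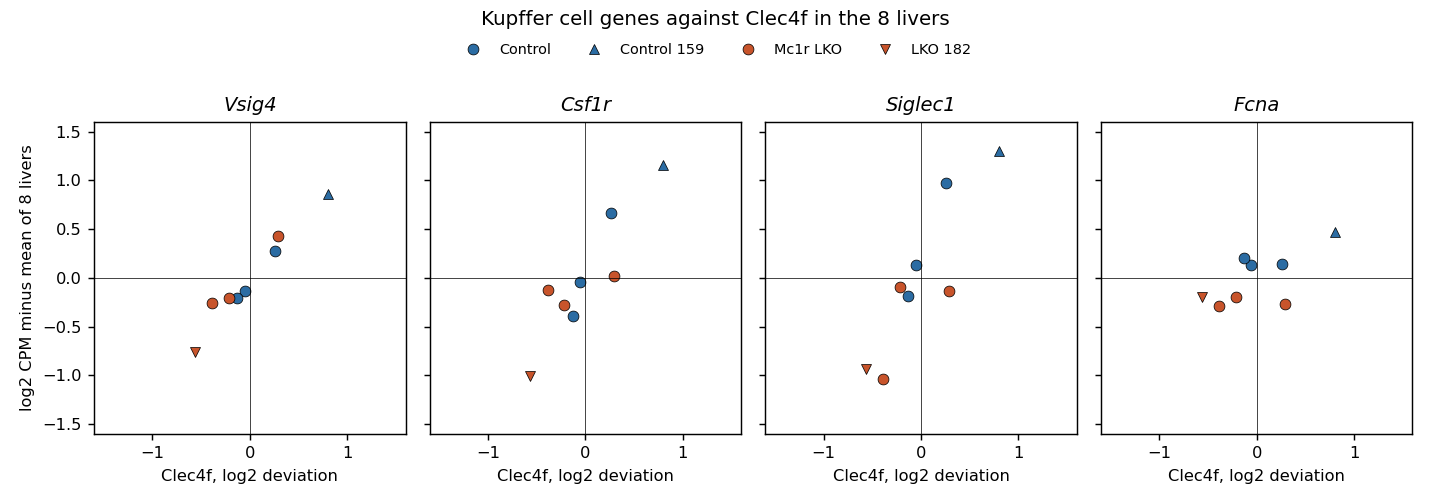
Log2 CPM minus the mean of the 8 livers for Vsig4, Csf1r, Siglec1 and Fcna (vertical) against that of Clec4f (horizontal), with controls in blue, Mc1r LKO mice in orange and mice 159 and 182 as triangles. Vsig4 follows Clec4f in both genotypes. Fcna is higher in every control than in any Mc1r LKO mouse, with control mouse 159 (0.47) above the other controls (0.14 to 0.21). Mc1r LKO mice lie between -0.29 and -0.20 for Fcna.

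A ratio to Clec4f in each mouse asks directly whether another gene moved apart from this lectin. Of the 9 ratios, that of Siglec1 differed most, with a mean log2 ratio of -3.59 ± 0.34 in controls and -4.25 ± 0.32 in Mc1r LKO mice (SD, n = 4 each), a difference of -0.67 (two-sided exact permutation test, p = 0.0571, adjusted over the 9 ratios p = 0.514). Set against Adgre1 instead, the ratio of Siglec1 differed by -0.59 and was lower in every Mc1r LKO mouse (exact permutation test, p = 0.0286, adjusted over 10 ratios p = 0.286). Differences in the other 8 ratios to Clec4f were between -0.26 (Csf1r) and 0.27 (Marco), with p of 0.257 or more in the exact permutation test. Fcna was no exception, with a difference of -0.038 (p = 0.886, exact permutation test), as the log2 fold change of Clec4f was -0.45 against -0.48 for Fcna, with a log2 SD within genotypes of 0.40 against 0.12.

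Of 25 other genes known from Kupffer cells, 24 were tested, and 22 of them had a lower mean in Mc1r LKO livers (median log2 fold change -0.39). At an unadjusted p under 0.05, 6 were lower and 0 higher, against 2.87% and 3.86% of all genes. Whole-liver RNA does not show which cells these transcripts came from, and Mrc1 is also counted in the sinusoidal endothelial list. The 5 with the smallest p included Pilra, an inhibitory receptor (-1.02, SE 0.30), and Kcna2, a potassium channel (5.68 CPM in controls and 2.80 CPM in Mc1r LKO mice). The others were Itga9, an integrin chain (-0.41, SE 0.16), Hmox1, the enzyme that degrades haem (-0.44, SE 0.18), and Slc11a1, a metal transporter of the phagosome (-0.81, SE 0.35). The adjusted p of these 5 in edgeR's quasi-likelihood test were 0.734 to 0.735. With mouse 159 left out 2 were lower at an unadjusted p under 0.05, and with mouse 182 left out 3 were. Without mice 159 and 182, 14 of the 24 were lower, the median was -0.043, and 1 had an unadjusted p under 0.05. That fit called 4.25% of all genes lower. Among 25 pan-macrophage and myeloid genes, 23 were lower with a median of -0.51, and 12 were lower with a median of 0.026 once both mice were left out. Adgre1 was at 17.8 ± 8.05 CPM in controls and 12.4 ± 4.91 CPM in Mc1r LKO mice (SD, n = 4 each; log2 fold change -0.51, SE 0.34). One gene of that list, Tlr4, the receptor for lipopolysaccharide, had an unadjusted p under 0.05 (-0.95, SE 0.32) and was lower in every Mc1r LKO mouse, at 2.13, 3.07, 2.08 and 3.02 CPM in controls and 1.80, 1.62, 1.17 and 0.766 CPM in Mc1r LKO mice. Its counts were 15 to 74 read pairs. When mice 159 and 182 were left out, 0 genes of that list were lower at that p.

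Of 13 transcription factors that set Kupffer cell identity, 7 were lower and 6 higher in whole-liver RNA. Such RNA does not show which cells these transcripts came from, so the counts do not say how the factors changed in Kupffer cells. With all 8 mice, 1 factor was lower and 1 higher at an unadjusted p under 0.05. The lower one was Zeb2, needed to keep that identity (-0.52, SE 0.21, adjusted p = 0.734 in edgeR's quasi-likelihood test). At an unadjusted p under 0.05, 0 factors were lower and 2 higher without mouse 159, 0 lower and 1 higher without mouse 182, and 0 lower and 2 higher without both. Spic, known from red pulp macrophages and also found in Kupffer cells, was at 0.744 to 5.67 CPM in controls and 0.869 to 1.62 CPM in Mc1r LKO mice (log2 fold change -0.83, SE 0.57). Ligands and partners of the 10 proteins, most of them made by other liver cells, gave 8 lower and 5 higher of 13 tested and none with an unadjusted p under 0.05. Csf1, which encodes a ligand of Csf1r, was at 11.9 ± 1.52 CPM in controls and 9.95 ± 2.33 CPM in Mc1r LKO mice (SD, n = 4 each; log2 fold change -0.26, SE 0.18).

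Genes of the macrophages that appear in fatty liver were not higher as a group with all 8 mice. Of 15 genes of lipid-associated macrophages, 7 were lower and 8 higher, with a median log2 fold change of 0.012 and 0 past an unadjusted p of 0.05. Trem2, their lipid-sensing receptor, was at 2.55, 2.79, 1.72 and 6.03 CPM in controls and 5.53, 4.03, 3.84 and 0.358 CPM in Mc1r LKO mice. Mice 141, 156 and 157 were above 3 of the controls, and mouse 182 was lowest of all. Without mouse 182, 13 of the 15 were higher, the median was 0.30 and 1 had an unadjusted p under 0.05. Without both mice the median was 0.21, with 13 of 15 higher and 3 past that limit, in a fit that called 1375 of 13483 genes in either direction. Of 14 genes of recruited monocytes, 8 were tested, 4 lower and 4 higher. Without mouse 159, 2 of 10 tested were lower (median 0.19), and without both mice 1 of 9 was lower (median 0.14) and 1 was higher at an unadjusted p under 0.05. Ly6c2, which defines inflammatory monocytes, did not pass the filter (at most 0.808 CPM). Whole-liver RNA does not show which cells the tested genes of either list were transcribed in. These counts therefore do not say how lipid-associated macrophages or monocytes changed.

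Markers of other liver cells showed a mixed picture. Sinusoidal endothelial genes had a median log2 fold change of -0.12 (12 of 17 lower; Stab2 -0.19, SE 0.14; Bmp2 0.36, SE 0.16, with an unadjusted p under 0.05), hepatic stellate cell genes of -0.004 (7 of 13 lower; Reln 0.027, SE 0.18), and hepatocyte genes of 0.15 (8 of 9 higher; Alb 0.11, SE 0.14). Without mouse 182 these medians were -0.005 (9 of 17 lower), 0.13 (3 of 13 lower) and 0.009 (4 of 9 lower). All 4 tested cholangiocyte genes were higher (median 0.37), among them Spp1, which is also in the lipid-associated list. Epcam was at 6.36, 2.60, 0.848 and 0.409 CPM in Mc1r LKO mice 141, 156, 157 and 182. Controls lay at 0.691 to 1.77 CPM (exact permutation test, p = 0.543). Without mouse 182, 1 of the 4 was lower (median 0.48) and 1 was higher at an unadjusted p under 0.05, in a fit that called 1095 of 13674 genes in either direction. Cd3e, Cd79a and Flt3, which define T cells, B cells and dendritic cells, did not pass the filter. Of the genes of these cells that were tested, 2 of 3 of T and NK cells (median -0.66), 4 of 5 of B and plasma cells (-0.51) and 4 of 5 of dendritic cells (-0.26) were lower, none with an unadjusted p under 0.05. Without mice 159 and 182 the medians were 0.044, 0.18 and 0.067. The part of these cells in the levels of the 10 genes was not tested. Of 11 neutrophil genes 4 were tested, and S100a8 was at 0.938 CPM in controls and 1.30 CPM in Mc1r LKO mice. Csf3r, a receptor for granulocyte growth factor, was lower in every Mc1r LKO mouse (-0.77, SE 0.34, adjusted p = 0.735 in edgeR's quasi-likelihood test). The gap was narrow, from 3.35 CPM in control 154 to 3.31 CPM in Mc1r LKO 156, and control 159 was at 9.20 CPM. Without mouse 159, without mouse 182 or without both, 0 neutrophil genes were lower at an unadjusted p under 0.05. Of the 22 interferon-induced genes, 20 were lower (median -0.47), and Gbp5 (-1.95, SE 0.61), Gbp4 (-1.74, SE 0.55) and Gbp6 (-1.13, SE 0.44), which encode guanylate-binding proteins, had an unadjusted p under 0.05. These 3 are paralogs whose shared reads are uncertain. Without mice 159 and 182, 18 of the 22 were lower, with a median of -0.11 and 1 gene past that limit. Siglec1, itself inducible by interferon, was lower as were most of that list, and the part of interferon in its level was not tested.

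**Figure D5:**
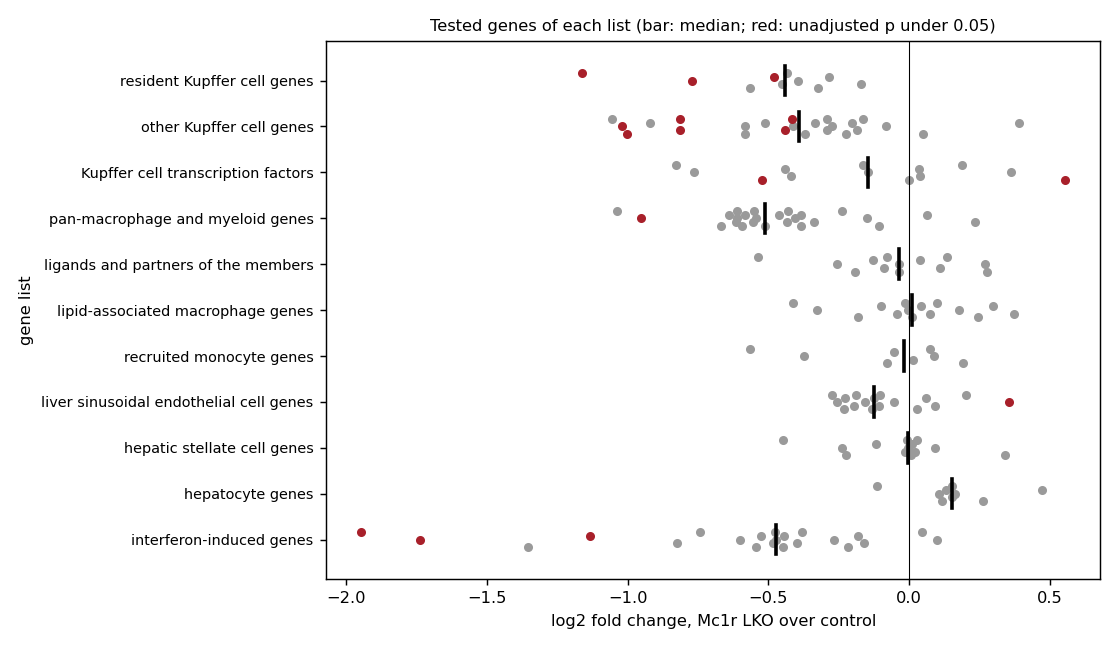
Log2 fold change of Mc1r LKO over control for each tested gene of the lists with at least 8 tested genes, with the median as a bar and genes with an unadjusted p under 0.05 in red. The resident Kupffer cell genes (median -0.44), other Kupffer cell genes (-0.39), pan-macrophage and myeloid genes (-0.51) and interferon-induced genes (-0.47) lie mostly below 0, and the stellate, monocyte and lipid-associated macrophage genes lie around it.

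Likeness to the set was measured as Pearson's r over the 8 mice of genotype-centred log2 CPM, among 12339 genes with a mean of at least 1 CPM. Closest to the mean of the 10 genes were Coro7, a coronin of the Golgi (r = 0.996, rho = 1.00, and r = 0.988 without mice 159 and 182), Gm5150 (0.990), Sdc3, a syndecan (0.989), Cd300lf, an inhibitory receptor of myeloid cells (0.987), and Agpat5, an acyltransferase of phospholipid synthesis (0.987). Siglec1 was closest to Ace, the angiotensin-converting enzyme (r = 0.994, and 0.992 without mice 159 and 182), Zfp39 (0.980) and Limd2 (0.974). Ace also had a log2 fold change of -1.37 (unadjusted p = 0.0311 in edgeR's quasi-likelihood test). Fcna was closest to H2-K1, a class I histocompatibility gene (r = 0.984, and 0.852 without mice 159 and 182), Idnk (0.982) and Irgm1, an interferon-induced GTPase (0.978). Being the closest of 12339 genes over 8 mice, these genes are given without a test.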

How the data were processed

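Liver RNA of 8 mice was sequenced with a stranded mRNA kit. The authors trimmed the reads (Trim Galore 0.6.6), aligned them (STAR 2.7.6a), counted them per gene and strand (featureCounts 2.0.1) on an Ensembl 102 annotation of GRCm38, and deposited raw counts of read pairs, with no normalization. The methods write GRCh38. No exon base of the 10 genes is shared with another gene of the same strand.

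From these counts, genes were filtered with filterByExpr (minimum count 10, minimum total 15), TMM-normalised and tested with edgeR 4.0.16 (glmQLFit and glmQLFTest; R 4.3.3; common biological coefficient of variation 0.209), with Benjamini-Hochberg adjustment over 13400 genes. The paper's text does not name the test used. On simulated data, 62 of 86 genes changed 2-fold and 109 of 110 changed 4-fold were called among 13224 genes, with 8 of 13028 unchanged ones. The Kupffer cell genes had a log2 SD within genotypes of 0.12 for Fcna and 0.40 to 1.10 for the others. How often changes would be called at that spread was not tested. Log2 CPM had a prior count of 2. Genes outside the filter are scaled by the total count. Single values were compared by two-sided exact permutation tests over 70 assignments (scipy 1.17.1). P-values measure the spread between 4 mice per group. DESeq2 1.42.0, limma-voom (limma 3.58.1) and other filters and scalings were tried. No batch is named for these mice, and their numbers are not shared between groups, so nothing pairs them.

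The 10 genes and the other lists were chosen with earlier results of these data known. Named from each other list are its defining gene and up to 5 genes with an unadjusted p under 0.05, smallest first, plus C1qc and the genes closest to the set, to Siglec1 and to Fcna; 1 gene that this rule names is not reported here. Promoters came from RefSeq.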

Additional observations from a re-analysis of the deposited data

Results flagged for a closer look

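Single mice far from the 3 others of their group were looked for in 68 groups of 4 values (Dixon's test of the gap over the range at 95%), and 6 were found where chance gives about 3.4. Among the 20 groups of the 10 Kupffer cell genes 1 was found: Marco in Mc1r LKO mouse 156, at 15.6 CPM against 3.17 to 4.40 CPM in the other 3. Kcna2, a further gene of Kupffer cells, was far above the rest in the same mouse (4.16 CPM against 2.21 to 2.46 CPM) and in control mouse 159 (10.3 CPM against 3.54 to 4.65 CPM). Control mouse 159 also stood apart for Csf3r, a receptor of neutrophils (9.20 CPM against 3.35 to 3.67 CPM), and for the interferon-induced Gbp4 (26.2 CPM against 4.59 to 6.24 CPM) and Gbp6 (16.7 CPM against 3.44 to 5.54 CPM). The cause of these values was not tested.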

How the results depend on the processing

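All 10 genes were lower in Mc1r LKO mice under each of the 10 other tests, normalizations and filters, with a median log2 fold change between -0.48 and -0.41. The number past an unadjusted p of 0.05 was 2 with limma-voom and with robust dispersion (Fcna and Siglec1, without Csf1r) and 5 with no filter and with the first principal component as a covariate (Clec4f and Cd5l added). The fit with the covariate called 1527 of 13400 genes, with 5.96% of all genes as lower, against 901 and 2.87% in the reported one, and the fit with no filter 1225 of 24087 genes and 2.60%. Leaving out 1 mouse at a time, between 8 and 10 genes were lower, between 2 (without control 159 or 193, or Mc1r LKO 141, 157 or 182) and 6 (without Mc1r LKO 156; 5 without control 181) passed an unadjusted p of 0.05, between 1 and 3 did not overlap (2 without control 181, where 3.47% of all genes had every Mc1r LKO mouse below every control, and 3 without 156, where 2.92% had, against 1.54% with all mice), and the median lay between -0.65 and -0.17. Of all genes, 2.04% (without control 159) to 3.51% (without control 181) were called lower in those fits. In the same fits Timd4 lay between -0.63 and 0.21 and Marco between -1.01 and 0.61. The log2 fold change turned to higher for Timd4 without control 159 (0.21) and for Marco without control 159 (0.61) or Mc1r LKO 141 (0.043) or 182 (0.078). With both 159 and 182 left out, 5 genes were lower, 1 had an unadjusted p under 0.05, and Vsig4 (0.032), Timd4 (0.35), Marco (0.84), C1qa (0.086), C1qb (0.17) and C1qc (0.035) turned to higher. In that fit 4.25% of all genes were called lower. The ratio of Fcna differed by 0.036 when set against Adgre1 in place of Clec4f. No paired analysis was possible because the mouse numbers are not shared between the genotypes. Depth limits the scarcest genes most, with 44 to 308 read pairs per mouse for Siglec1, 48 to 240 for Marco and 52 to 124 for Timd4.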

Other observations

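The C1q chains were not in 1 fixed proportion in the livers. Per kilobase of exon, the ratio of C1qc to C1qb was 0.631, 0.657, 0.703 and 0.568 in control mice 154, 159, 181 and 193 and 0.557, 0.554, 0.566 and 0.524 in Mc1r LKO mice 141, 156, 157 and 182, lower in every Mc1r LKO mouse. Of the 3 ratios among the chains this was the one with the smallest p (two-sided exact permutation test, p = 0.0286, adjusted over 3 ratios p = 0.0857), and it did not pass the adjustment. Control mouse 193 differed from the highest Mc1r LKO mouse by 0.568 against 0.566. The ratio was looked at after the levels of the chains were known.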
